A study of Mus musculus with 23 samples.

Results

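Fos, Fosb, Fosl2, Jun, Junb, Egr1, Egr2, Egr3, Ier2 and Arc are immediate early genes, which cells transcribe within minutes of a stimulus without needing new protein. These 10 genes were taken by symbol from the 23481 gene symbols counted in each of 23 RNA-seq libraries of mouse olfactory epithelium, and all 10 were listed in every library. Each library held mRNA that had been pulled down from homogenised epithelium by an antibody to ribosomal protein S6 in its phosphorylated form (pS6), which builds up in active neurons. All mice were of the c57BL/6 strain and were at postnatal day 21, with no other allele named in the labels. They had been exposed for 1 h to a control, to 1% odor or to 100% odor. The odor was acetophenone in one experiment, with 5 control, 3 1% and 3 100% libraries, and TMT in the other, with 4 libraries for each of control, 1% and 100%. The labels give each library a litter number. Control libraries of acetophenone came from litters 1 to 5, the 1% libraries from litters 3 to 5 and the 100% libraries from litters 1 to 3, whereas each of the 4 TMT litters gave 1 library per dose. The labels do not say how many animals were pooled in a library or what the control mice were given, so p-values measure the spread between these libraries.

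In neurons, calcium entry and second messengers activate kinases that act on transcription factors already bound at immediate early promoters. Fos and Jun proteins pair through leucine zippers to form AP-1, and the Egr proteins bind GC-rich sites through zinc fingers. Because S6 is phosphorylated by kinases that lie downstream of the same signals, pS6 immunoprecipitation and immediate early transcription are used as separate readouts of recent neuronal activity. Olfactory sensory neurons respond to odor with cyclic AMP, which opens a channel that lets calcium in.

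Uniquely aligned reads summed to 2187268 to 2946194 per library at 100% acetophenone, 2118099 to 3998370 at 1% acetophenone and 2389806 to 4151769 in acetophenone controls. They summed to 2672161 to 8347796 at 100% TMT, 2869995 to 9526932 at 1% TMT and 4069851 to 7609265 in TMT controls. All 5 libraries of acetophenone litters 2 and 3, 3 of them odor and 2 control, stood apart from the other 18 in these genes. Junb had 0 counts in all 5 libraries, Ier2 had 1 count in total and Jun had 17, while the other 18 libraries held 47.5 to 151 counts per 1000000 scaled counts (CPM) of Junb and 40.1 to 126 CPM of Ier2. Of 6686 genes at a mean of at least 20 CPM in the other 18 libraries, 19 (0.284%) had at most 3 counts in these 5 libraries together. Among these 19 were Junb, Ier2, Jund and Eif2s3y, a gene of the Y chromosome. The median transcript GC content of the 18 of those genes with an annotated transcript was 60.8%, against 51.0% for the other genes at that level, and Junb (62.6%) and Ier2 (60.9%) had the highest GC content of the 10 genes. The cause of the missing reads was not tested, and Fos and Egr1 were still counted in all 5 libraries. The titles give these 5 libraries a code series of their own, so litter and library series cannot be told apart. Markers of mature olfactory neurons, 12 genes that include Omp and Cnga2, were all counted in every group. They summed to 3938 to 7447 CPM in these 5 libraries and 4373 to 7100 CPM in the other acetophenone libraries. Omp alone was lower in these 5, at 111 to 265 CPM, against 871 to 1940 CPM in the other acetophenone libraries. Glia markers summed to 110 to 357 CPM in these 5, against 968 to 1623 CPM.

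Expression was measurable for 5 of the 10 genes (the map of counts by library). Fos, Jun and Egr1 had at least 1 read in 23 of 23 libraries, Ier2 in 19 and Junb in 18. Fosl2 had reads in 12 libraries with a highest count of 29, Egr2 in 11 with a highest count of 17, Arc in 6 with a highest count of 6, Fosb in 4 with a highest count of 2 and Egr3 in 2 with a highest count of 13. These 5 sparse genes entered no filtered test, because the filter on low counts removed them from every comparison. The alternative fit without a filter kept genes with any read, and its values for these genes are not reported here. A level per transcript length, in CPM per kilobase (kb) of the longest annotated transcript, ordered the genes in TMT controls as Junb (59.7 ± 21.1), Ier2 (57.9 ± 18), Fos (19.2 ± 9.36), Jun (13.8 ± 5.81) and Egr1 (4.49 ± 1.21; SD, n = 4). Junb and Ier2 did not differ beyond their spread, and neither did Fos and Jun, whose ranges of 7.83 to 30.7 and 7.65 to 19.2 CPM per kb overlapped. Egr1, at 3.14 to 6.07 CPM per kb, lay below all TMT control values of the other 4.

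**Figure D1:**
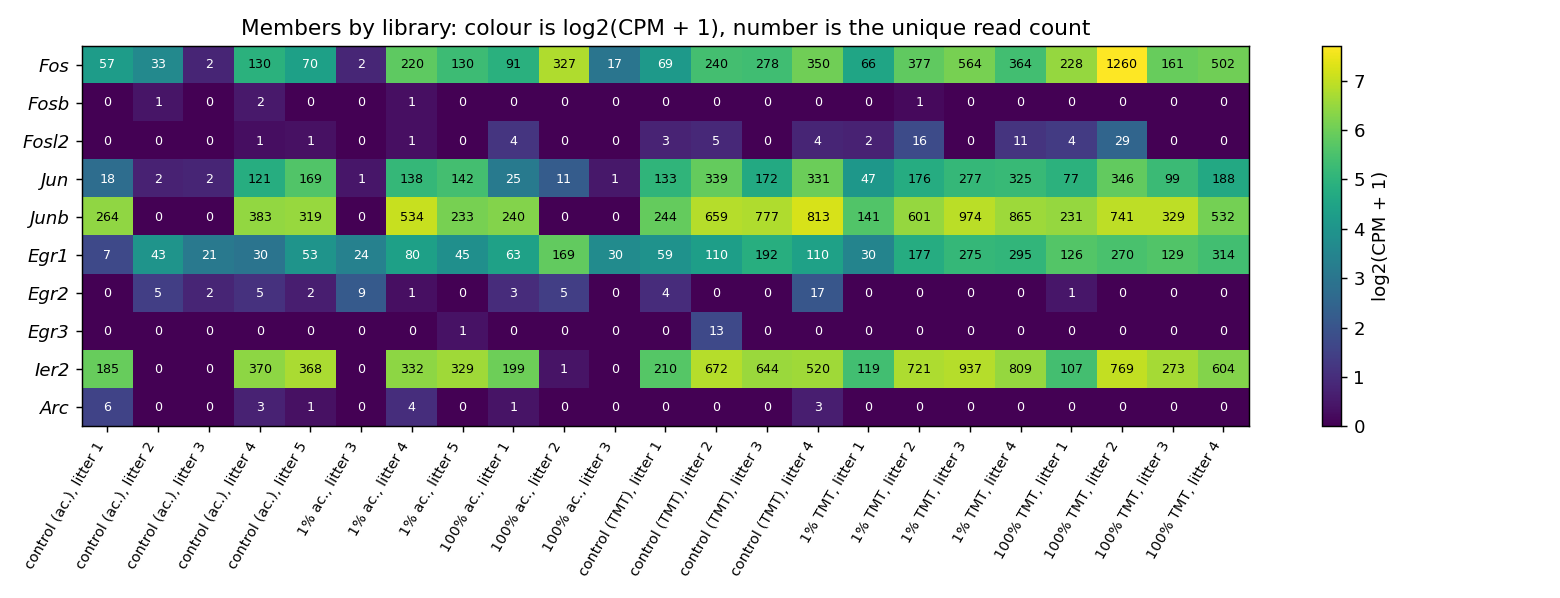
Counts of the 10 genes (rows) in each of the 23 libraries (columns, by experiment, dose and litter). Colour gives log2(CPM + 1) and the number in each cell the count of uniquely aligned reads. Fos, Jun and Egr1 have reads in all libraries, but in acetophenone litters 2 and 3 Jun has only 1 to 11 and Fos as few as 2. Junb and Ier2 are at 0 or 1 in those litters, and Fosb, Fosl2, Egr2, Egr3 and Arc are nearly empty throughout.

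Fos encodes the protein whose appearance is the most used mark of activated neurons, and it lies at chr12:85473890-85477274 of GRCm38 (mm10). At 100% acetophenone Fos had 28.9, 110 and 6.88 CPM in litters 1, 2 and 3, against 18.1, 11.3 and 0.736 CPM in controls of those litters. Fos was higher with the odor in 3 of 3 litters, a pattern shown by 15.4% of all genes tested, and the groups overlapped. The smallest value of each group came from litter 3, where it rested on 17 counts with the odor and 2 counts in the control. The log2 fold change was 2.19 (SE 1.18, adjusted p = 1.00) in edgeR's quasi-likelihood test and 2.12 (SE 0.52, adjusted p = 0.551) with litter as a block, so Fos was not called in either fit. Without litter 1, which left only libraries of the series that stood apart, the block fit gave a log2 fold change of 3.22 with an edgeR adjusted p of 0.00697, the only fit that called Fos here. It was 1.36 without litter 2 and 1.96 without litter 3 in the block fit, and 0.84 without the block when the 100% library of litter 2 was left out. Litter 1 alone, with no test, held 1.59 times as much Fos with the odor as in its control.

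At 1% acetophenone Fos had 0.789, 54.7 and 38.1 CPM in litters 3, 4 and 5, against 0.736, 29.1 and 19.9 CPM in their controls. Litters 4 and 5 gave nearly equal ratios of 1.88 and 1.92, and in litter 3 both libraries held 2 counts. Fos was again higher in 3 of 3 litters, as were 16.0% of all genes tested. The log2 fold change was 0.91 (SE 1.42, adjusted p = 1.00) without the block and 0.89 (SE 0.25, adjusted p = 0.430) with it in edgeR, and Fos was not called.

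At 100% TMT Fos had 87.7, 207, 59.7 and 64.0 CPM in litters 1 to 4, against 16.5, 41.0, 39.4 and 64.8 CPM in controls. Litters 1 and 2 had ratios of 5.32 and 5.04, litter 3 differed 1.51-fold and litter 4 had a ratio of 0.988. In litter 4 the sign depended on the scaling, since scaled by all unique counts alone the library with 100% TMT had 60.1 CPM and its control 55.0 CPM. The means were 104 ± 69.2 CPM with 100% TMT and 40.4 ± 19.7 CPM in controls (SD, n = 4 each). In edgeR the log2 fold change was 1.42 (SE 0.46, adjusted p = 0.204), and with the litter block it was 1.44 (SE 0.42, adjusted p = 0.0885). DESeq2 without the litter block gave 1.41 and an adjusted p of 0.0462, below the threshold of 0.05. Over all of its alternatives the adjusted p of Fos ranged between 0.0462 and 0.417.

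At 1% TMT Fos had 22.2, 55.6, 69.0 and 40.0 CPM in litters 1 to 4, and the same 4 controls as above. It was higher in 3 of 4 litters and lower in litter 4, and edgeR put the log2 difference at 0.23 (SE 0.45, adjusted p = 0.999), which changed sign when control litter 1 (-0.04) or 1% litter 3 (-0.02) was left out.

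**Figure D2:**
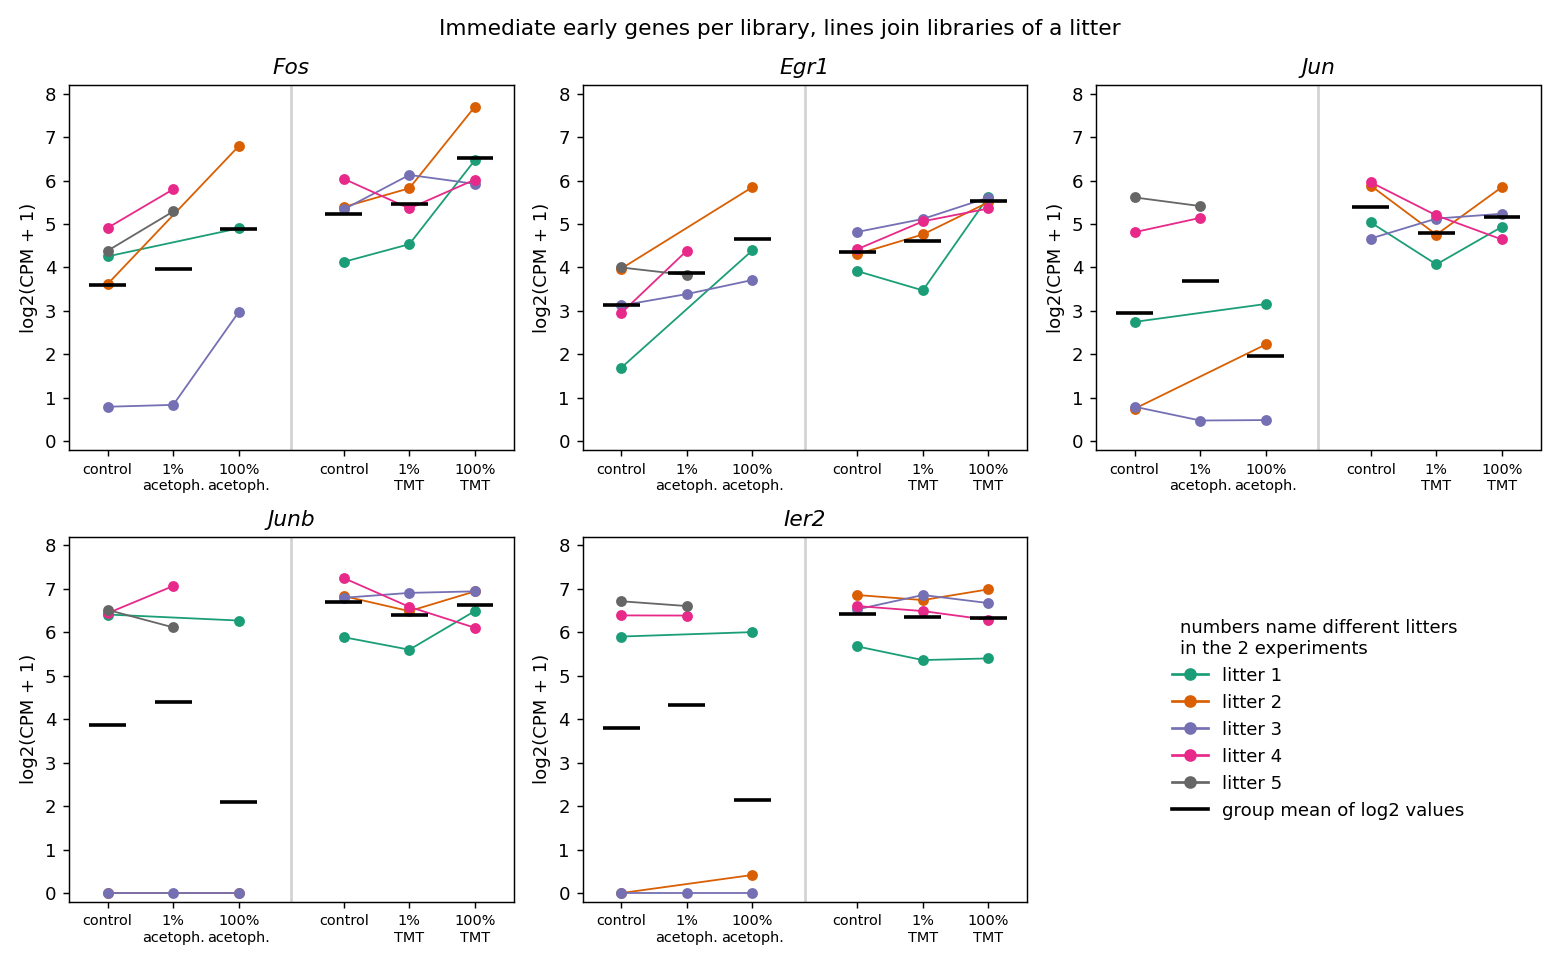
Levels of Fos, Egr1, Jun, Junb and Ier2 as log2(CPM + 1) in each library, with lines joining libraries of a litter and black bars for group means of the log2 values (5 control, 3 1% and 3 100% acetophenone libraries, and 4 each for TMT). Egr1 at 100% TMT sits above all TMT controls, Fos lines point up at 100% acetophenone in each litter, and Junb and Ier2 lie flat at about 0 in acetophenone litters 2 and 3.

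The promoter of Fos is shown because Nr4a1, another immediate early gene, had the profile most like that of Fos, and that of Junb for comparison within the AP-1 genes. Capitals mark TGACG, the core of the cyclic AMP response element, or its complement CGTCA, and TATAAA. Each stretch is the 250 bases before the gene's start in RefSeq (GRCm38.p6), read along the gene: chr12:85473640-85473889 on the plus strand for Fos, chr15:101266596-101266845 on the plus strand for Nr4a1 and chr8:84978749-84978998 on the minus strand for Junb.
Fos: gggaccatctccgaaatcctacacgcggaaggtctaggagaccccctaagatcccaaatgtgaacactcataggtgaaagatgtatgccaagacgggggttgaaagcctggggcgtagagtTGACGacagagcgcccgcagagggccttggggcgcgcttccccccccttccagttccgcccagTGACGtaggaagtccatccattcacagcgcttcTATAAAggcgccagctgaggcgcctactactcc
Nr4a1: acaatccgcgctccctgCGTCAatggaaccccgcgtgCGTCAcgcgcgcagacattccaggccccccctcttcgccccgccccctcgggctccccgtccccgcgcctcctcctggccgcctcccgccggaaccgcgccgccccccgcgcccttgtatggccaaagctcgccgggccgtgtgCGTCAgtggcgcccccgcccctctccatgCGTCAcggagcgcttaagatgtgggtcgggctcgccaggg
Junb: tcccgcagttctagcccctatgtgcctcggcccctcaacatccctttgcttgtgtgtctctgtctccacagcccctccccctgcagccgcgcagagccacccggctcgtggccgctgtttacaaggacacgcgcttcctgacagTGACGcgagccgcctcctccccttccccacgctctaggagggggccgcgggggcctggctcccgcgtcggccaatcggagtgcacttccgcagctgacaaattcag
TGACG was found on either strand 2 times in the window of Fos, starting 129 and 66 bases before the start, 4 times in that of Nr4a1 and 1 time in that of Junb. It occurs at least 1 time in 17.8% of 32851 mouse promoter windows of this length, and TATAAA, found 33 bases before the start of Fos, in 12.4%. These shares were not matched for GC content or for the number of copies. The full element TGACGTCA, held by 1.55% of the windows, was found in none of the windows printed here. The window of Jun holds no TGACG. These are matches of letters, and binding was not measured here.

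Fosb and Fosl2 encode further partners of Jun, and both were near the limit of detection. Fosb had 5 counts in all 23 libraries, of which 4 fell in acetophenone libraries. Fosl2 had 81 counts in total: 4, 29, 0 and 0 counts at 100% TMT in litters 1 to 4, 2, 16, 0 and 11 counts at 1% TMT and 3, 5, 0 and 4 counts in TMT controls. Litter 2 held its highest count at each dose, with 4.76 CPM at 100% TMT and 0.855 CPM in the control, while the other litters held at most 4 counts in either. Fosl2 did not pass the filter on low counts in any comparison.

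Jun and Junb encode the partners that Fos needs, and neither passed the test in any comparison with controls in which it was tested. Junb was not tested in the filtered fits at 100% acetophenone, where the filter on low counts removed it. Jun, at chr4:95049036-95052222, had 7.94, 3.69 and 0.404 CPM at 100% acetophenone in litters 1 to 3, against 5.72, 0.683 and 0.736 CPM in controls, with 1 to 11 counts in the libraries of litters 2 and 3. At 1% acetophenone it had 0.394, 34.3 and 41.6 CPM in litters 3 to 5, against 0.736, 27.1 and 47.9 CPM in controls. At 100% TMT Jun had 29.6, 56.7, 36.7 and 24.0 CPM, against 31.8, 58.0, 24.4 and 61.3 CPM in controls. The groups overlapped, and the log2 fold change was -0.20 (SE 0.36, edgeR adjusted p = 0.850), which turned to 0.21 (adjusted p = 0.814) in the block fit corrected for GC content and length. At 1% TMT Jun had 15.8, 26, 33.9 and 35.7 CPM, lower than its control in 3 of 4 litters. Its log2 fold change there was -0.63 (SE 0.36, edgeR adjusted p = 0.999).

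Junb, at chr8:84976909-84978748, was carried in the acetophenone experiment by litters 1, 4 and 5 only. It had 76.2 CPM at 100% acetophenone and 84.0 CPM in the control of litter 1. At 1% acetophenone it had 133 and 68.2 CPM in litters 4 and 5, against 85.8 and 90.5 CPM in controls, so the litters went in opposite directions. At 100% TMT Junb had 88.9, 122, 122 and 67.8 CPM, against 58.2, 113, 110 and 151 CPM in controls. It was higher in 3 of 4 litters and 0.451 times its control in litter 4, for a log2 difference in edgeR of -0.05 (SE 0.30, adjusted p = 0.957). Without control litter 4 this value was 0.15, and in the GC and length corrected block fit 0.58 (adjusted p = 0.180). In the annotation an exon of Prdx2 overlaps Junb on the other strand, and reads of the pair cannot be told apart without strand information. The same holds for Jun and the antisense gene Junos, which is not among the gene symbols counted.

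Egr1 encodes a zinc finger activator and lies at chr18:34861207-34864956. Egr1 had 48.5, 44.3, 47.8 and 40.0 CPM at 100% TMT in litters 1 to 4, against 14.1, 18.8, 27.2 and 20.4 CPM in controls. The groups did not overlap, which held for 4.21% of all genes tested in this direction, and the odor library was higher in 4 of 4 litters (13.2% of genes). The ratio was 3.44 in litter 1 and 1.76 to 2.35 in the others, and the means were 45.1 ± 3.88 CPM with 100% TMT and 20.1 ± 5.43 CPM in controls (SD, n = 4 each). In edgeR the log2 fold change of 1.22 (SE 0.34) had an adjusted p of 0.168, and 1.29 (SE 0.31) with the litter block an adjusted p of 0.0553. Egr1 was called by DESeq2 without the block (1.22, adjusted p = 0.0205) and in the block fit with GC and length correction (1.74, adjusted p = 0.0311). Thus the size held at 1.06 to 1.74 on the log2 scale over all alternatives, including those without 1 litter, and the call depended on the test. At 1% TMT Egr1 had 10.1, 26.1, 33.7 and 32.4 CPM, higher than its control in 3 of 4 litters, and edgeR put the log2 difference at 0.37 (SE 0.33, adjusted p = 0.999).

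In the acetophenone experiment Egr1 had 20, 56.6 and 12.1 CPM at 100% in litters 1 to 3, against 2.23, 14.7 and 7.73 CPM in controls. All 3 litters were higher with the odor, with ratios of 8.99, 3.86 and 1.57, and the control of litter 1 held only 7 counts. The log2 fold change was 1.83 (SE 0.79, adjusted p = 1.00) in edgeR and 1.84 (SE 0.46, adjusted p = 0.585) with the litter block. The ratio of Fos was smallest in litter 1, where that of Egr1 was largest. At 1% acetophenone Egr1 had 9.47, 19.9 and 13.2 CPM in litters 3 to 5, against 7.73, 6.72 and 15.0 CPM in controls. In edgeR the log2 difference of 0.54 (SE 0.50, adjusted p = 1.00) came mostly from litter 4, and with the litter block it was 0.05 when litter 4 was left out.

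Egr2 and Egr3 encode relatives of Egr1 that were close to absent from these libraries. Egr2 had 54 counts in total, 17 of them in the TMT control of litter 4 and 9 at 1% acetophenone in litter 3, with 1 count in all 100% TMT libraries together. Egr3 had 13 counts in the TMT control of litter 2, 1 count at 1% acetophenone in litter 5 and none elsewhere. A count of 0 allowed up to 0.329 to 1.21 CPM, depending on the library.

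Ier2 encodes a nuclear immediate early protein and lies at chr8:84661331-84662852. At 100% TMT it had 41.2, 126, 101 and 77.0 CPM, against 50.1, 115, 91.3 and 96.3 CPM in controls, higher in 2 litters and lower in 2. Its log2 fold change was 0.03 (SE 0.35, edgeR adjusted p = 0.978), -0.02 with the litter block and 0.54 (adjusted p = 0.127) with GC and length correction as well. At 1% TMT it had 40.1, 106, 115 and 88.8 CPM, and a log2 fold change of 0.01 that was -0.03 with the litter block. In acetophenone litter 1 it had 63.2 CPM at 100% and 58.8 CPM in the control, and at 1% in litters 4 and 5 it had 82.6 and 96.3 CPM, against 82.8 and 104 CPM in controls. Arc, which encodes a postsynaptic protein and marks activated neurons of the brain, had 18 counts in all 23 libraries. Of these, 15 fell in acetophenone litters 1, 4 and 5 and 3 in the TMT control of litter 4.

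Across the genome few genes passed the test, so the members were read against that background. At 100% acetophenone edgeR called 0 of 11564 genes (0.00%) without the block and 11 (0.0951%) with it, DESeq2 called 5 (0.0432%), and none of the 3 members tested was called. At an unadjusted p under 0.05 and higher, 0 members stood beside 0.415% of genes without the block. Fos and Egr1 both did so with the block, beside 3.44% of genes, and with DESeq2, beside 0.605%.

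At 1% acetophenone edgeR called 0 of 12077 genes (0.00%) without the block and 1 (0.00828%) with it, DESeq2 called 1 (0.00828%), and none of the 5 members was called. At an unadjusted p under 0.05 and higher, no member stood beside 0.414% of genes without the block or 0.513% with DESeq2, and Fos alone did with the block, beside 4.81%. At 1% TMT edgeR called 0 of 13233 genes (0.00%) without the block and 1 (0.00756%) with it, DESeq2 called 4 (0.0302%), and no member was called. No member had an unadjusted p under 0.05 there, beside 2.94% of genes higher without the block, 4.90% with it and 4.03% with DESeq2.

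At 100% TMT edgeR called 0 of 13233 genes (0.00%) without the block and 314 (2.37%) with it. DESeq2 without the block called 483 (3.65%), and the block fit corrected for GC content and length called 242 (1.85%). None of the 5 members was called by edgeR without that correction, DESeq2 called Fos and Egr1, and the corrected fit called Egr1. At an unadjusted p under 0.05 Fos and Egr1 were higher in the edgeR fits, where 8.33% of genes were so without the block and 11.4% with it. Junb and Ier2 joined them in the corrected fit, where 11.8% of genes were so. The number of genes called higher with the block, 244, was 153 without litter 1, 1 without litter 2, 0 without litter 3 and 15 without litter 4. In pulled-down RNA, more active cells, a larger share of their RNA in the pulldown and more RNA per active cell cannot be told apart. No library here held RNA from before the pulldown.

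**Figure D3:**
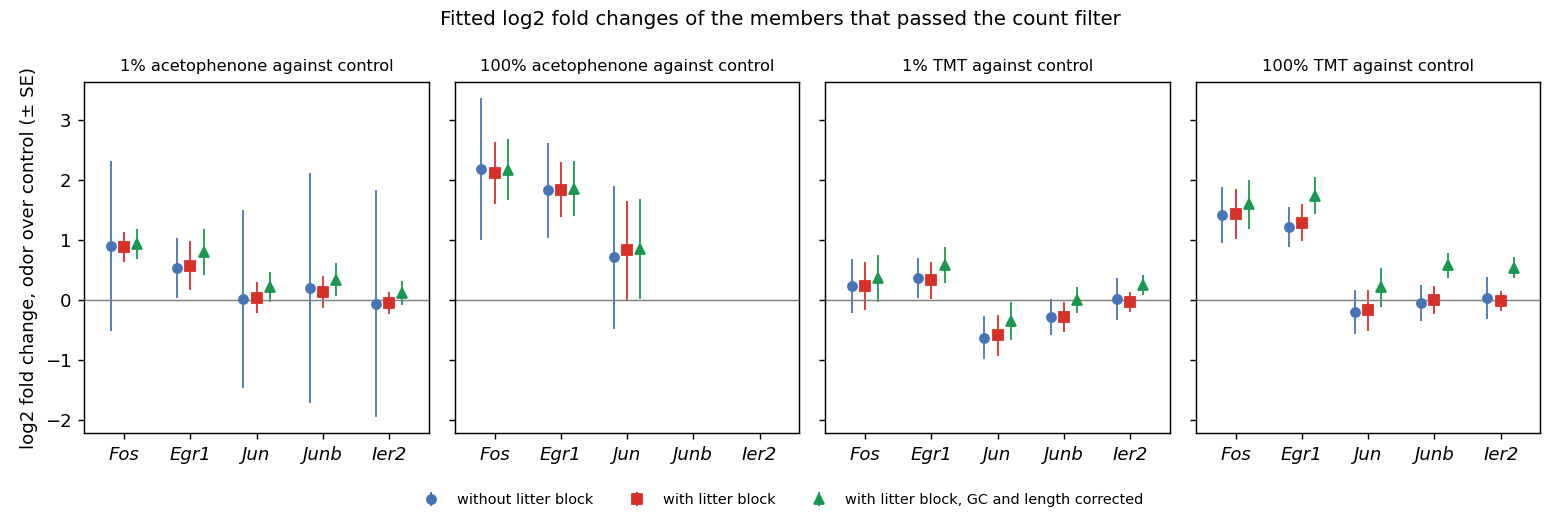
Fitted log2 fold changes of odor over control for the members that passed the filter on low counts, with bars for 1 SE, in 3 edgeR fits (without litter, with litter as a block, and with a correction for GC content and length as well). Fos and Egr1 lie above 0 in all panels and highest at 100%. Jun lies at 0.83 at 100% acetophenone and at -0.59 at 1% TMT within litters, and Junb and Ier2 lie nearer to 0, and higher with the correction at 100% TMT. Junb and Ier2 were not tested at 100% acetophenone.

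The doses were also compared with each other. With TMT, Egr1 had 48.5, 44.3, 47.8 and 40.0 CPM at 100%, against 10.1, 26.1, 33.7 and 32.4 CPM at 1%, again with no overlap (1.47% of genes in this direction) and higher in 4 of 4 litters (8.25%). Its log2 fold change between the doses was 0.86 (SE 0.33, edgeR adjusted p = 0.934) and that of Fos 1.19 (SE 0.45, adjusted p = 0.934). Both had an adjusted p of 0.546 with the litter block, and edgeR called 0 of 13233 genes (0.00%) in either fit, DESeq2 22 (0.166%) and neither tool a member. Between the acetophenone doses, which share only litter 3, the fit with litter over all 11 libraries gave Fos 1.49 (SE 0.62, adjusted p = 0.785) and Egr1 1.06 (SE 0.58, adjusted p = 0.796), with 0 of 12873 genes called (0.00%) by edgeR and 4 (0.0311%) by DESeq2, and no member by either. Without litters 2 and 3 the value of Fos turned to -0.26. The doses were not linked by a common litter in that case, and the value rests on controls.

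Whether the odors differed was tested as the response to acetophenone minus the response to TMT. At 100% the difference for Fos was 0.23 on the log2 scale (SE 1.21, edgeR adjusted p = 1.00) and 0.94 (SE 0.74) with the litter block, but -1.07 without acetophenone litters 2 and 3, and for Egr1 it was 0.51 (SE 0.71) and 0.61 (SE 0.59). At 1% it was 0.76 (SE 1.22) for Fos and 0.27 (SE 0.72) for Egr1 without the block. No member was called at either dose, where edgeR without the block called 0 of 13831 genes (0.00%) and, with it, 0 at 100% and 1 (0.00723%) at 1%, and no member had an unadjusted p under 0.05 in edgeR or DESeq2.

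A wider list of 52 other immediate early genes, including the Nr4a receptors, the Dusp phosphatases and the Klf factors, was counted in the same fits. At 100% TMT the litter block fit called 4 of the 46 that were tested, all higher, against 1.84% of all genes called higher, and without the block 0 were called. Without the block 11 had an unadjusted p under 0.05, 10 of them higher, beside 8.33% of all genes higher and 6.36% lower. DESeq2 called 5 higher, beside 2.33% of all genes, and the GC and length corrected block fit 3, beside 1.25%. Within litters 31 of the 46 were above 0, and the median log2 fold change was 0.45, against 0.02 over all genes tested. This list was chosen with earlier results of these data known, so its count describes these libraries.

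Nr4a1, an orphan nuclear receptor induced by activity, had 240, 445, 316 and 184 CPM at 100% TMT, against 53.2, 106, 64.6 and 122 CPM in controls. The groups did not overlap, which held for 4.21% of all genes tested in this direction. Its log2 fold change was 1.78 (SE 0.29, edgeR adjusted p = 0.0213) within litters and 1.83 (SE 0.35, adjusted p = 0.123) without the block. Nfil3, a repressor of the basic leucine zipper class, had 239, 672, 365 and 272 CPM at 100% TMT, against 90.0, 213, 130 and 133 CPM in controls, again without overlap. It had the smallest p of the list within litters, where edgeR put the log2 difference at 1.45 (SE 0.14, adjusted p = 0.00497). Nr4a2, a relative of Nr4a1, had 51.5, 82.8, 27.4 and 73.5 CPM, against 11.2, 49.9, 7.65 and 9.63 CPM, and Dusp1, a phosphatase that turns off MAP kinases, had 131, 261, 135 and 156 CPM, against 91.2, 108, 119 and 73.3 CPM. Both were higher in each litter, as were 13.2% of all genes tested, and the groups overlapped for Nr4a2 but not for Dusp1. Log2 fold changes within litters were 1.96 (SE 0.45, edgeR adjusted p = 0.0460) for Nr4a2 and 0.83 (SE 0.19, adjusted p = 0.0477) for Dusp1. Without litter 2 or litter 3 none of the 4 genes was called with the block, without litter 1 Nfil3 was, and without litter 4 Nr4a1 and Nfil3 were. Their log2 differences in those fits were 1.36 to 1.55 for Nfil3, 1.61 to 2.21 for Nr4a1, 1.55 to 2.45 for Nr4a2 and 0.66 to 1.02 for Dusp1. Npas4, a factor restricted to neurons, had at most 24 counts in any library.

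**Figure D4:**
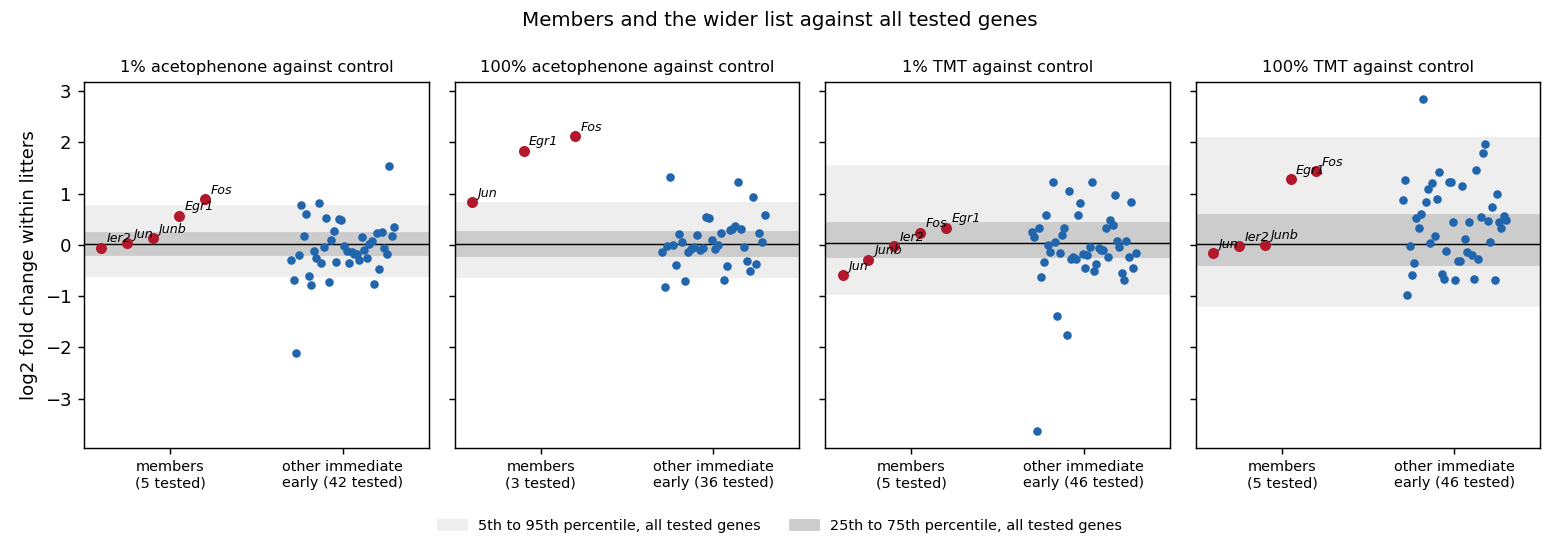
Log2 fold changes from the litter block fit for the members (red, named) and for the other immediate early genes (blue) in each odor and dose against its controls, with grey bands for the central ranges of all genes tested and a line for their median. At 100% acetophenone Fos and Egr1 lie above the 95th percentile of all genes, which was 0.82. Jun lies just above it, at 0.83, and rests on 1 to 25 counts per library. At 100% TMT that percentile was 2.09, and Fos, Egr1 and Jun lie within the band.

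In the other 3 comparisons with controls no gene of the wider list was called by edgeR or DESeq2. At 100% acetophenone 36 were tested, with a median log2 fold change within litters of 0.00, against 0.01 over all genes, and Nr4a1 had 1.24 (SE 0.47, edgeR adjusted p = 0.897). Nr4a1 had 96.6, 325 and 99.9 CPM there, against 83.3, 38.3 and 65.9 CPM in controls, and its largest value fell in litter 2, as for Fos. At 1% the medians within litters were -0.11 over 42 genes for acetophenone and -0.08 over 46 genes for TMT, against 0.01 and 0.03 over all genes. At an unadjusted p under 0.05 the block fits held 2 genes of the list at 100% acetophenone, 3 at 1% acetophenone and 4 at 1% TMT. Of all genes, 3.44% were higher and 1.83% lower at that threshold at 100% acetophenone, 4.81% and 3.70% at 1% acetophenone and 4.90% and 2.26% at 1% TMT, so these counts were near the background. The smallest p beside Nr4a1 at 100% acetophenone belonged to Plk3, with a log2 fold change of 0.94 (SE 0.42, adjusted p = 0.897). At 1% acetophenone they belonged to Errfi1, a feedback inhibitor of the EGF receptor, at 0.53 (SE 0.19) and Per1, a clock gene, at -0.77 (SE 0.29). At 1% TMT they belonged to Errfi1 at 1.06 (SE 0.40) and Nfil3 at 0.33 (SE 0.14), and these 4 values had edgeR adjusted p between 0.510 and 0.694.

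Upstream kinases, transcription factors and partners, 34 genes that include Srf, Creb1, the MAP kinases and the S6 kinases, held 0 calls in edgeR in these comparisons. At 100% TMT 5 of the 29 tested had an unadjusted p under 0.05 within litters, 4 of them higher, beside 11.4% of all genes higher and 8.19% lower, and DESeq2 called 1. Rps6kb1, a kinase of S6, had the smallest p of this list there, at a log2 difference of 0.97 in edgeR (SE 0.27, adjusted p = 0.0764). Ppp3cb, a calcineurin subunit, followed with 0.91 (SE 0.30, adjusted p = 0.126). Rps6kb1 averaged 76.7 ± 23 CPM with 100% TMT and 40.7 ± 12.6 CPM in controls (SD, n = 4 each). In the other 3 comparisons the smallest p within litters belonged to Ppp3ca (0.30, SE 0.16) and Rps6ka3 (0.73, SE 0.40) at 100% acetophenone, to Rps6ka5 (-1.16, SE 0.44) and Elk4 (1.02, SE 0.51) at 1% acetophenone, and to Map2k2 (-0.26, SE 0.12) and Mef2d (-1.92, SE 1.11) at 1% TMT. Their edgeR adjusted p lay between 0.551 and 0.897.

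The genes with profiles most like Fos and Egr1 were found by Pearson's r of log2(CPM + 1), centred within each litter, over the 23 libraries among 10644 genes with a mean of at least 5 CPM. Nr4a1 was most like Fos (r = 0.87), followed by Dpagt1 (0.83), an enzyme of N-glycosylation, the secretory gland gene Bpifb9b (0.81), Odam (0.80) and Bpifb9a (0.80). Egr1 ranked 26 in that list (r = 0.71), Jun 730 (0.45), Ier2 1620 (0.35) and Junb 2059 (0.30). Olfr30, an odorant receptor, was most like Egr1 (r = 0.80), followed by Arhgap29 (0.75), the mitochondrial channel gene Vdac1 (0.74), Dusp14 (0.73) and, after Fos (0.71), Pcdh10 (0.71), a protocadherin. These correlations are descriptions, since the libraries share litters and conditions. With a pseudocount of 5 in place of 1, the order kept 2 of the 5 genes for Fos, Nr4a1 and Dpagt1, and 4 of 5 for Egr1, while Egr1 moved to rank 8 for Fos (r = 0.78).

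Other signs of activity were read beside the members. Pcdh10, an activity-dependent gene of olfactory neurons, was changed within litters by 2.11 on the log2 scale (SE 0.20, adjusted p = 0.00679 in edgeR) at 100% acetophenone and 1.04 (SE 0.25, adjusted p = 0.0507) at 100% TMT. Without the block these were 2.12 (adjusted p = 1.00) and 1.05 (adjusted p = 0.190). S100a5, another gene linked to neuronal activity, ranged between 18.5 and 1083 CPM at 100% TMT and between 16.9 and 70.4 CPM in TMT controls, with a within-litter log2 difference in edgeR of 1.99 (SE 0.80, adjusted p = 0.194). At 100% acetophenone S100a5 had 1041, 2292 and 1349 CPM in litters 1 to 3, against 1074, 2681 and 1092 CPM in controls, and was higher in litter 3 only. Omp, which marks mature olfactory neurons, averaged 384 ± 29.4 CPM at 100% TMT and 375 ± 104 CPM in controls (SD, n = 4 each). The summed level of the 12 mature neuron markers was 3360 to 4318 CPM with 100% TMT and 1931 to 4270 CPM in controls. With 100% acetophenone it was 5305, 7447 and 4493 CPM in litters 1 to 3. Controls of those litters had 4373, 5282 and 3938 CPM, so the sum was higher with the odor in each litter. The 8 immune cell markers summed to 260 to 397 CPM with 100% TMT and 261 to 454 CPM in controls. The 8 sustentacular cell markers summed to 7392 to 9758 CPM with 100% TMT and 7859 to 8720 CPM in controls. The 7 Bowman gland markers summed to 12697 to 17847 CPM with 100% TMT and 11202 to 12860 CPM in controls. The 5 glia markers summed to 637 to 739 CPM with 100% TMT and 1019 to 1306 CPM in controls. The 9 immature neuron markers summed to 1549 to 2387 CPM with 100% TMT and 2181 to 3210 CPM in controls. The 6 fibroblast and bone markers summed to 5948 to 7583 CPM with 100% TMT and 6755 to 10798 CPM in controls. With the block at 100% TMT, 1 of 4 glia, 1 of 8 immature neuron and 1 of 6 fibroblast and bone markers tested were called lower. Of 8 sustentacular cell markers 1 was called higher. The median log2 fold changes of these lists were -0.33, -0.54, -0.13 and 0.73 in that order, against 0.02 over all genes tested. Of all genes tested, 2.37% were called in either direction. The part of these cell markers in the values of Fos and Egr1 was not tested.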

How the data were processed

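The deposited files give whole-number read counts per gene symbol for each library, from reads aligned with Bowtie to mm10 and assigned with bedtools, per the submitters' processing notes, which give no versions. Each file has 20 value columns without a header. The first was read as the authors' counts of uniquely aligned reads and the last as the authors' estimated counts including multiply aligned reads, since values never fall between columns. The other 18 columns were not used. That reading comes from the values. Nextera libraries do not record strand.

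Counts were tested with edgeR 4.0.16 (limma 3.58.1, R 4.3.3) by the quasi-likelihood test, with TMM scaling, filterByExpr at a minimum count of 10 and Benjamini-Hochberg adjustment over all genes tested at 0.05. CPM are counts per 1000000 of the TMM-scaled library size over all 23 libraries, and a limit for 0 counts is 3 counts, which covers counting error only. The 3 TMT groups shared a fit. Litter was a block only between the acetophenone doses and in alternatives. The labels tie libraries to litters, so same-numbered libraries pair. As a check, deviations from group means of libraries that share a litter were correlated. At 100% acetophenone r lay between 0.53 and 0.76, and at 1% acetophenone between 0.67 and 0.87. Acetophenone litters 2 and 3 were the library series that stood apart, so these r cannot tell litter from series. In TMT litters r was lower, between 0.05 and 0.31 at 100%, between 0.02 and 0.33 at 1% and between -0.07 and 0.40 from dose to dose. Other alternatives were DESeq2 1.42.0, RLE scaling, no filter, estimated counts rounded to whole numbers, a GC and length correction with the block (GENCODE M21 on GRCm38, 98.4% of symbols matched) and leaving out each library or litter. DESeq2 was run without the litter block, except between the acetophenone doses. Leaving out acetophenone litters 2 and 3 was added after seeing the data. Scripts were tested on simulated data.

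The members and lists were chosen with earlier results of these data known. Named genes were the members, the 5 genes most like Fos and the 5 most like Egr1, the genes of the lists past the threshold or else the 2 with the smallest p, and reference genes. Promoters are from RefSeq (GRCm38.p6), which gave entries for 6 of the 10 members.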

Additional observations from a re-analysis of the deposited data

Results flagged for a closer look

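Among 27 groups of 4 or 5 libraries checked for a library far from the rest, 2 stood out, and chance alone marks about 1 in 20 groups. Fosl2 in TMT controls was at 0.00 CPM in litter 3, while the next value was 0.716 CPM, a gap of 0.838 of the group's range. Egr3 in TMT controls was at 2.22 CPM in litter 2 and at 0.00 CPM in the other litters, a gap equal to the whole range. That holds for any gene with reads in only 1 library of a group, so the rate of 1 in 20 does not apply to Egr3. Both rest on few reads, and their cause was not tested.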

How the results depend on the processing

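Of 594 alternative values for 38 member fold changes, 532 kept direction and side of the threshold, 58 changed sign and 4 passed the threshold. Of the 138 for Fos and Egr1 against control, 3 changed sign. Few litters and low counts limit these results, and for Junb and Ier2 the acetophenone values rest on litters 1, 4 and 5. The cause of the changes below was not tested.

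With the replicate block, genes called higher numbered 11 at 100% acetophenone, 1 at 1% acetophenone, 244 at 100% TMT (70 lower) and 1 at 1% TMT, and 1 was lower in the 1% difference between odors. The pairing changed the sign at 100% TMT of Junb (0.00) and Ier2 (-0.02), of Ier2 at 1% TMT (-0.03), of Jun (1.08) and Ier2 (0.28) in the 100% difference between odors and of Ier2 (-0.01) in the 1% difference. With the block and GC and length correction the counts were 8, 1, 164 (78 lower, 1 member) and 1 in that order, 4 higher between TMT doses and 1 lower in the 1% difference. That fit turned Ier2 at 1% acetophenone to 0.12, Jun and Junb at 100% TMT to 0.21 and 0.58, Jun in the 100% difference to 0.71 and Ier2 in the 1% difference to -0.11. DESeq2 called 5, 1, 308 (175 lower, 2 members) and 4 genes higher, 9 higher and 13 lower between TMT doses, 3 higher and 1 lower between acetophenone doses, and 1 lower in the 1% difference. Without the block between acetophenone doses Jun was -2.66 and Ier2 -1.49. Without a filter Ier2 was -0.02 at 100% TMT, -0.02 at 1% TMT and 0.00 between TMT doses, and 1 gene was higher and 2 lower between acetophenone doses. With estimated counts Ier2 was -0.01 at both TMT doses, and -0.01 at 1% TMT with only the 8 libraries compared. Without acetophenone litters 2 and 3, chosen after seeing the data, Fos was -0.26 between the doses and -1.07 in the 100% difference, and 4 genes were lower between the doses.

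Leaving out a library or litter gave 0 to 28 genes higher, 0 to 2 lower and 0 to 1 members at 100% acetophenone, 0 to 18 higher and 0 to 1 lower at 1% acetophenone, 0 to 153 higher and 0 to 26 lower at 100% TMT, 0 to 1 higher at 1% TMT, and 0 to 1 higher and 0 to 5 lower between acetophenone doses. Log2 fold changes then ranged between -0.26 and 2.41 for Jun and between 0.84 and 3.22 for Fos at 100% acetophenone. At 1% acetophenone they ranged between -0.54 and 0.85 for Jun, -0.78 and 0.77 for Junb and -0.64 and 0.52 for Ier2. At 100% TMT they ranged between -0.47 and 0.15 for Jun, -0.27 and 0.32 for Junb and -0.19 and 0.24 for Ier2. At 1% TMT they ranged between -0.04 and 0.62 for Fos and -0.20 and 0.22 for Ier2. Between doses they ranged between -0.20 and 0.24 for Ier2 with TMT and -0.75 and 0.25 for Junb with acetophenone. Scaled by all unique counts, Egr1 at 100% TMT averaged 41.3 CPM in place of 45.1. With the block, leaving out a litter gave as few as 0 and up to 153 genes higher at 100% TMT, with 15 without litter 4. Of the values that changed sign in those fits, Jun was -0.22 and Junb -0.37 at 1% acetophenone without litter 4, and Ier2 was between -0.10 and -0.09 at 100% TMT, -0.15 at 1% TMT and -0.09 between TMT doses. Fos was -0.01 at 1% TMT without litter 3, Jun 0.15 and Junb 0.32 at 100% TMT without litter 4, and Junb 0.25 between acetophenone doses without litter 4. Ier2 was also -0.01 at 1% TMT without litter 2. Without the TMT control of litter 4, Jun was 0.01 at 100% TMT and Fos 0.55 at 1% TMT.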
